A study of Mus musculus with 9 samples.

Results

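Histone acetyltransferases transfer the acetyl group of acetyl-CoA to lysines of histone tails. Transcripts of 10 genes, 9 for such enzymes and 1 for a scaffold of their complexes, were followed in mouse round spermatids (RS), the haploid cells that leave meiosis. The genes were taken by their symbols from a table of 55414 genes, and all 10 had enough reads to be tested. They were Crebbp, Ep300, Kat2a, Kat2b, Kat5, Kat6a, Kat6b, Kat7, Kat8 and Brd1. RS were sorted by tdTomato fluorescence and cell size from the testes of Stra8-Tom mice on a C57Bl/6 background, in which Stra8-iCre, active from the spermatogonial stage, switches on tdTomato. The labels give the genotype as WT. The methods describe adult mice of unstated number per library, and the labels do not say that the libraries came from separate mice or cultures, so p-values here measure the spread between these libraries, which may be technical. The cells were incubated for 24 h. The methods give a medium with lactate, pyruvate and dialyzed serum for cultured spermatocytes and name none for RS. Vehicle cells received 0.15% DMSO, oxamate cells received 24 mM oxamate, an inhibitor of lactate dehydrogenase, and cells of the combination received 24 mM oxamate and 0.3 mM octyl-L2HG, a cell-permeable ester of L-2-hydroxyglutarate (L-2HG). All 3 groups contained 0.15% DMSO. Octyl-L2HG was never given alone, so its values always refer to cells that also received oxamate. Each group had 3 libraries. Libraries 1, 2 and 3 were vehicle, libraries 4, 5 and 6 oxamate and libraries 7, 8 and 9 the combination.

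CBP and p300, the products of Crebbp and Ep300, form a pair of large acetyltransferases that serve as coactivators of many transcription factors. GCN5 and PCAF, encoded by Kat2a and Kat2b, belong to the GNAT family and work within the SAGA and ATAC complexes. TIP60 (Kat5), MOZ (Kat6a), MORF (Kat6b), HBO1 (Kat7) and MOF (Kat8) make up the MYST family and work in complexes with scaffold and reader subunits. Brd1 (BRPF2) has no acetyltransferase activity itself and is a scaffold for HBO1 and for MOZ and MORF. Acetylation of histones, H4 above all, accompanies the replacement of histones by protamines in elongating spermatids.

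The windows around the transcription starts of the 4 genes called with oxamate or on addition of octyl-L2HG, Crebbp, Brd1, Ep300 and Kat7, are given here as RefSeq has them in the GRCm38.p6 build, from 250 bases before the start to 50 after it. Of the 10 genes, 9 matched the RefSeq table by symbol, with 13 windows in all. Kat6a had no entry. Capitals mark the GC box (GGGCGG, or CCGCCC on the other strand) and the half-site of the cAMP response element (TGACG, or CGTCA on the other strand), the motif of the factors that recruit CBP. The Crebbp window lies at chr16:4213355-4213654 on the minus strand, Brd1 at chr15:88734170-88734469 on the minus strand, Ep300 at chr15:81585964-81586263 on the plus strand and Kat7 at chr11:95310197-95310496 on the minus strand.
Crebbp: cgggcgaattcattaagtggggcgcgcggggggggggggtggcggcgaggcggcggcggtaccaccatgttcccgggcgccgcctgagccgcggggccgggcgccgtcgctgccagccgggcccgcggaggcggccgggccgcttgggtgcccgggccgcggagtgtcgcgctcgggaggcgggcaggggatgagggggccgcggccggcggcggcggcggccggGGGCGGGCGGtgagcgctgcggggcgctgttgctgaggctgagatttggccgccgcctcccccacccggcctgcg
Brd1: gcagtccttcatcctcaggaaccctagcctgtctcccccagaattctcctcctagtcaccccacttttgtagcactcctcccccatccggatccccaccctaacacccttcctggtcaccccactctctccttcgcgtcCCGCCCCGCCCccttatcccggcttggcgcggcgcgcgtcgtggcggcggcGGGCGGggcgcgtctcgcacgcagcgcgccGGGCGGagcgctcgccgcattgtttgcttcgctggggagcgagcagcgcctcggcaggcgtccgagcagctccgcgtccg
Ep300: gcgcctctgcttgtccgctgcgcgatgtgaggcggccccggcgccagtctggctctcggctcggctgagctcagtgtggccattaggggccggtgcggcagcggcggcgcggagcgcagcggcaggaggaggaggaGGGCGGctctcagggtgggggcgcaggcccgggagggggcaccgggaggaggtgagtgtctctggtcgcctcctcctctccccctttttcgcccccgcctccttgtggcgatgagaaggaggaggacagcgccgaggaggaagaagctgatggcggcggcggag
Kat7: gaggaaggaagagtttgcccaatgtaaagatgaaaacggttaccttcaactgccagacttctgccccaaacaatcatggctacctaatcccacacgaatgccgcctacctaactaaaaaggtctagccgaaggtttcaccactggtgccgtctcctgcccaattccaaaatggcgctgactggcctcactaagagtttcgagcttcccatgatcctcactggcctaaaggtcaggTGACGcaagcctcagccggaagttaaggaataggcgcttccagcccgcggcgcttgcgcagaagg
The Crebbp window held 2 GC boxes, which overlap, the Brd1 window 4 and the Ep300 window 1. Kat7 had none, but had 1 half-site and 2 CCAAT boxes (CCAAT, or ATTGG on the other strand, not capitalised). The complete element (TGACGTCA) was found in none of the 13 windows. Over all 32851 windows of the table, 35.7% held a GC box, 20.8% a half-site, 37.4% a CCAAT box and 1.79% the complete element. A match of letters is a description of the window and not a measured binding site.

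Total counts per library ran from 32339533 to 39888396, and 25128 genes with at least 10 counts summed over all libraries were tested. Round spermatid markers were abundant, with 13 genes such as Acrv1 and Tssk2 summing to between 2491 and 3027 CPM, counts scaled to the same library total. Markers of Sertoli, Leydig and peritubular, endothelial or immune cells summed to at most 2.86, 1.12 and 6.91 CPM. Of the Sertoli markers, Fshr was at 0 in every library, while Amhr2 had 32 to 59 reads per library, Clu 26 to 50 and Gata1 2 to 9. Sox9, Wt1, Cldn11 and Rhox5 had at most 4. Spermatocyte markers, 10 genes of the synaptonemal complex and meiosis, summed to between 656 and 835 CPM. Vehicle library 1 and oxamate library 4 stood apart from their groups on the first component of the within-group residuals, which held 56.2% of the residual variance, so results are also given without both. In the vehicle libraries long transcripts had lower values, relative to the mean of all libraries, than in the libraries of the combination.

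Expressed per kilobase of exon, the 10 genes spanned a wide range, and their order was the same in every group with no overlap between the libraries of neighbours. Kat8, the catalytic subunit of the MSL and NSL complexes, stood first with a level of 4249 ± 287 normalized counts per kb in vehicle cells (SD, n = 3), at the 96.8th percentile of the genes tested. Kat5 followed with 1295 ± 72.2 and Kat7 with 1169 ± 36.5, then Kat2b with 610.3 (599 to 626 over the 3 libraries), which exceeded Kat2a at 315 ± 12.7. Brd1 had 193 ± 8.38, Crebbp 147 ± 19.8 and Ep300 88.3 ± 10.7. Kat6a, with 18.6 ± 2.08, and Kat6b, with 13.5 ± 0.154, were the lowest, at the 46.1st and 42.2nd percentile. Genes of the MYST family held both ends of the order. The level of Kat5 may include reads of Rnaseh2c, which shares 426 exon bases with it on the opposite strand, and that of Kat8 reads of Prss8, with 122 shared bases on the opposite strand. Ep300 shares 54 exon bases with Gm23880 on the same strand. The strand setting of the counting is not given in the sources used here.

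Over the 3 groups, 6 of the 10 genes differed in any way (Crebbp, Ep300, Kat5, Kat6a, Kat7 and Brd1, edgeR's quasi-likelihood test, adjusted p between 0.000921 for Kat6a and 0.0385 for Kat7), where 19.8% of all genes tested did so. Kat2a, Kat2b, Kat6b and Kat8 did not pass this test. All 10 genes had a mean normalized count of at least 100. When only the 10715 genes at or above that level were tested, 3666 differed in any way. The pairwise comparisons share libraries, since the oxamate libraries enter both steps and the vehicle libraries enter both comparisons with vehicle, so the values of a gene in the 3 comparisons are not independent. In bulk RNA, fewer cells of a type and less RNA per cell cannot be told apart.

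The values of each library in the plot of normalized counts show which genes separated the groups.

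**Figure D1:**
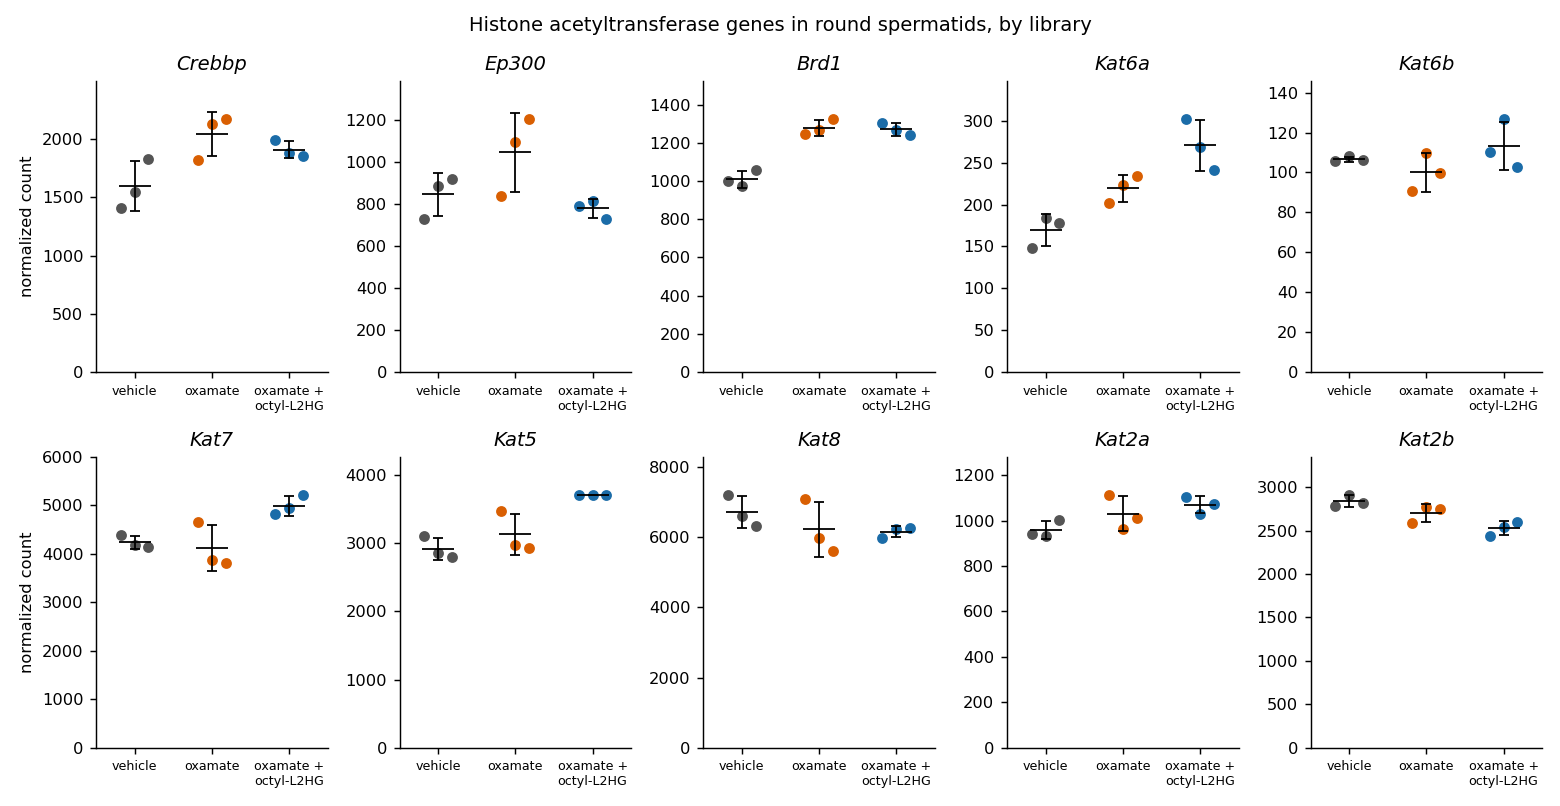
Normalized count of each of the 10 genes (y axis, from 0, its own scale per gene) in the 3 libraries of each group (points, in the order of their numbers), with the mean (long bar) and SD (error bar). Brd1 lies between 971 and 1057 in vehicle and between 1238 and 1324 in all other libraries, and the 3 Kat5 values of the combination lie between 3704 and 3712.

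Oxamate against vehicle asks what inhibition of lactate dehydrogenase did to these transcripts. Brd1 and Crebbp rose, by 1.27-fold and 1.28-fold, and no gene of the 10 fell. Over all genes tested, 3.96% were called higher and 1.22% lower, so the rises were 2 of 10 against that share. At an unadjusted p under 0.05 the numbers were 4 higher and 0 lower, and DESeq2 called 2 and 0. Crebbp, Ep300 and Brd1 are among the genes that the study itself selected from these libraries for a rise with oxamate that octyl-L2HG reversed, so the direction of their changes at either step is not independent evidence. The median log2 fold change of the 10 genes was 0.11, beside -0.011 over all genes tested.

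Brd1 had 998, 971 and 1057 normalized counts in the vehicle libraries and 1243, 1269 and 1324 in the oxamate libraries. Each oxamate library lay above each vehicle library, as for 11.4% of all genes tested, while 9.95% lay below in the same way. The log2 fold change was 0.35 (SE 0.07, adjusted p = 0.00396, edgeR), and the call held in each of 9 fits that left out 1 library, in which it ranged from 0.32 to 0.37, and under 9 alternative settings of the test, scaling, filter, samples, threshold and length trend.

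Crebbp had 1409, 1549 and 1829 normalized counts in vehicle and 1823, 2132 and 2174 in oxamate. Here the groups touched, since vehicle library 3 was just above oxamate library 4. Its log2 fold change of 0.36 (SE 0.09, adjusted p = 0.0145, edgeR) was called in 5 of the 9 fits without 1 library, and was lost without vehicle library 1 (0.28), vehicle library 2 (0.35), oxamate library 5 (0.33) or oxamate library 6 (0.32). When only the 2 groups compared entered the fit, the call was also lost. Without libraries 1 and 4 together the log2 fold change was 0.35 (adjusted p = 0.000178, edgeR).

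Ep300 and Kat6a had fold changes of similar size that did not pass. Ep300 had 729, 886 and 919 normalized counts in vehicle and 838, 1091 and 1203 in oxamate, with overlapping groups and a log2 fold change of 0.31 (95% interval 0.088 to 0.53, adjusted p = 0.106, edgeR). Kat6a, the catalytic subunit MOZ, had 148, 184 and 178 in vehicle and 202, 223 and 234 in oxamate, without overlap, and a log2 fold change of 0.37 (95% interval 0.14 to 0.61, adjusted p = 0.0625, edgeR). Both were called when oxamate library 4 was left out, at 0.44 and 0.43. With libraries 1 and 4 both left out, Ep300 was called at 0.34 (adjusted p = 0.000641, edgeR) and Kat6a was not (0.34, adjusted p = 0.0617, edgeR).

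The other 6 genes had log2 fold changes between -0.10 and 0.11 with oxamate and adjusted p values of at least 0.518 (edgeR). Among them Kat2b was the single gene whose oxamate libraries, at 2585, 2768 and 2746 normalized counts, all lay below the vehicle libraries, at 2787, 2912 and 2819.8, with a log2 fold change of -0.069 (95% interval -0.20 to 0.067). Kat8 fell by 0.21 on the log2 scale when oxamate library 4 was left out (adjusted p = 0.0234, edgeR), and was at -0.10 with all libraries.

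Addition of octyl-L2HG to oxamate, which asks whether L-2HG turned the oxamate effect back, lowered Ep300 and raised Kat7. Over all genes tested 8.06% were called lower and 3.18% higher in this comparison, or 1831 genes lower and 1106 higher with DESeq2 size factors and 2516 lower and 421 higher with total counts, in place of 2025 and 798 with TMM. At an unadjusted p under 0.05, 1 of the 10 genes was lower and 3 were higher, and DESeq2 called 1 and 2. The median log2 fold change of the 10 genes was -0.0031, beside -0.038 over all genes.

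Ep300 fell to 791, 815 and 728 normalized counts in the combination, each below the lowest oxamate library, as in 15.3% of all genes tested. Its log2 fold change was -0.45 (SE 0.11, adjusted p = 0.00862, edgeR), a level 0.732 times that with oxamate. The fall was called under all 9 alternative settings, and in 6 of the 9 fits without 1 library. It was lost without oxamate library 5 (-0.41), oxamate library 6 (-0.34) or combination library 9 (-0.41), each with an adjusted p between 0.0502 and 0.0652 (edgeR). Without libraries 1 and 4 it was -0.58 (adjusted p = 6.24e-09, edgeR). Against vehicle, Ep300 in the combination had a log2 fold change of -0.14 (95% interval -0.37 to 0.083, adjusted p = 0.421, edgeR), and the groups overlapped. This value was -0.24 without vehicle library 1 (adjusted p = 0.157, edgeR), and without libraries 1 and 4 Ep300 was called lower than vehicle, at -0.24 (adjusted p = 0.00508, edgeR).

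Kat7, which acetylates H3 and H4 in complex with Brd1 or Jade scaffolds, moved the other way. Its normalized counts were 4659, 3866 and 3815 with oxamate and 4812, 4942 and 5218 in the combination, without overlap, as in 13.4% of all genes for this direction. The log2 fold change of 0.25 (SE 0.08, adjusted p = 0.0368, edgeR) was called in 4 of the 9 fits without 1 library, and was lost without oxamate library 5 (0.21) or 6 (0.20) or combination library 7 (0.28), 8 (0.26) or 9 (0.21), and with total counts as the scaling (0.21). Without libraries 1 and 4 it was 0.36 (adjusted p = 7.93e-07, edgeR).

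Of the genes that rose with oxamate, neither Brd1 nor Crebbp was called as lowered by octyl-L2HG. Brd1 was at 1304, 1268 and 1238 normalized counts in the combination, overlapping the oxamate libraries, and its log2 fold change between these groups was -0.035 with a 95% interval from -0.18 to 0.11, which excludes a fall as large as the rise. Crebbp had 1996, 1879 and 1860.1, with a mean between those of the other groups and a log2 fold change of -0.12 (95% interval -0.30 to 0.058, adjusted p = 0.442, edgeR) that was called as a fall only without libraries 1 and 4 (-0.19, adjusted p = 0.0121, edgeR). Consequently 0 of the 10 genes were called both as raised by oxamate and as lowered by octyl-L2HG, a pattern met by 1.09% of all genes tested. Ep300 met it without oxamate library 4, without libraries 1 and 4, when all genes with at least 1 count were tested and with the residual component as a covariate, and Crebbp met it without libraries 1 and 4.

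Kat5 and Kat6a were also without overlap in this step. Kat5, the catalytic subunit of the NuA4/TIP60 complex, had 3477, 2979 and 2931 normalized counts with oxamate and 3704, 3707 and 3712 in the combination. Its log2 fold change of 0.22 missed the threshold (adjusted p = 0.0631, edgeR), but passed it in 7 of the 9 alternative settings and without oxamate library 4 (0.31). Kat6a had 302, 269 and 242 in the combination and a log2 fold change of 0.27 (95% interval 0.044 to 0.50, adjusted p = 0.122, edgeR).

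The plot of fold changes sets the 3 comparisons side by side.

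**Figure D2:**
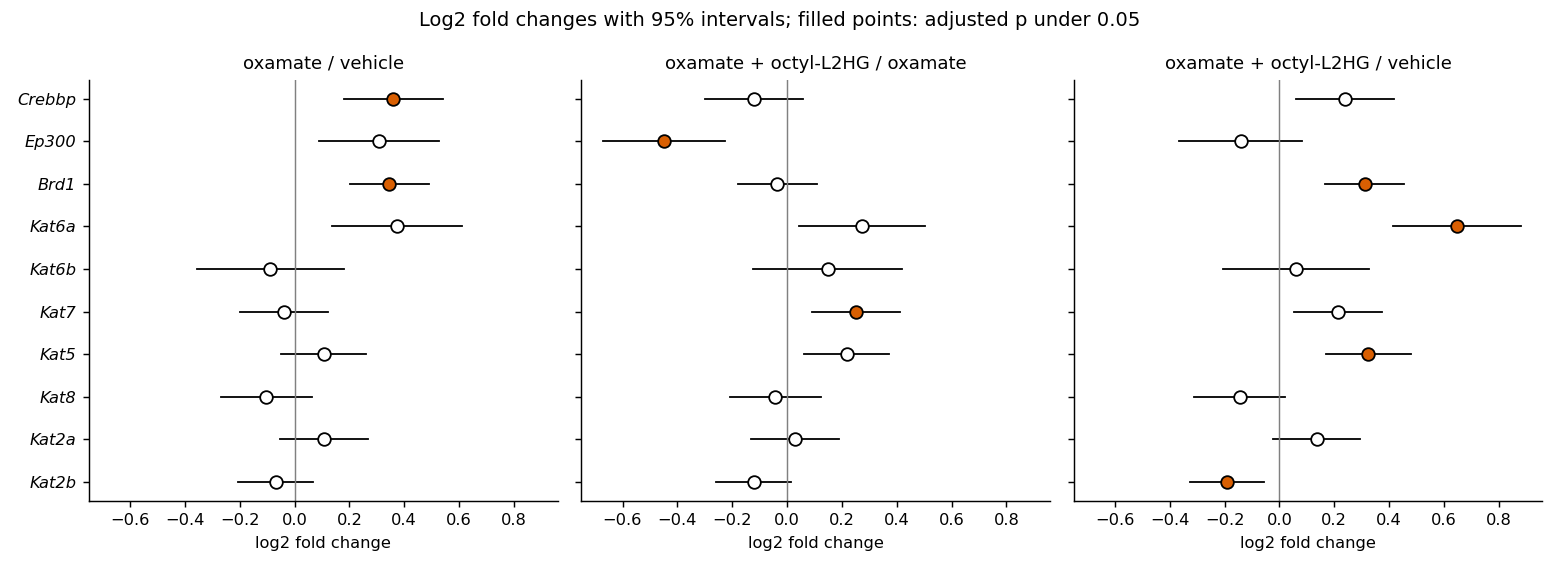
Log2 fold change (x axis) of each of the 10 genes in the 3 comparisons, with 95% intervals as lines. Filled points passed an adjusted p of 0.05 in edgeR's quasi-likelihood test, which were Crebbp and Brd1 for oxamate, Ep300 and Kat7 for the addition of octyl-L2HG, and Kat2b, Kat5, Kat6a and Brd1 for the combination against vehicle.

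Against vehicle, the combination differed in 4 genes. Kat6a, Kat5 and Brd1 were higher, by 1.57-fold, 1.25-fold and 1.24-fold, and Kat2b was lower, at 0.876 times the vehicle level. Among all genes tested 7.48% were called higher and 10.6% lower, with 1879 higher and 2655 lower by TMM, 2206 and 2493 by DESeq2 size factors and 1231 and 3365 by total counts. At an unadjusted p under 0.05, 5 of the 10 genes were higher and 1 was lower, while DESeq2 called 5 and 0. The median of the 10 genes was 0.18, beside -0.045 over all genes.

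Kat6a showed the largest change of the 10 genes, a log2 fold change of 0.65 (SE 0.11, 95% interval 0.41 to 0.88, adjusted p = 0.000289, edgeR). It was at 170.0 ± 19.0 normalized counts in vehicle, 219.6 ± 16.1 with oxamate and 271 ± 30.3 in the combination (SD, n = 3). Each combination library was above each oxamate library, and each of these above each vehicle library, an order found in 1.52% of all genes tested. The difference between the ends was called in all 9 fits without 1 library (0.56 to 0.72) and in all 9 alternative settings.

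For Kat5 the log2 fold change was 0.32 (SE 0.07, adjusted p = 0.00363, edgeR), from 3104, 2855 and 2798 in vehicle, and for Brd1 it was 0.31 (SE 0.07, adjusted p = 0.00304, edgeR). Both were called in all 9 fits without 1 library and all 9 alternative settings. Kat2b, at 2438, 2538 and 2599 in the combination, lay below every vehicle library, as did 18.5% of all genes tested. Its fall of 0.19 on the log2 scale (adjusted p = 0.0466, edgeR) was called in 1 of the 9 fits without 1 library, that without oxamate library 4, and in 5 of the 9 alternative settings.

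Crebbp and Kat7 lay above every vehicle library in the combination, as for 18% of all genes, but at adjusted p values of 0.0593 and 0.0579 (edgeR) were not called. Their log2 fold changes were 0.24 and 0.21. Crebbp passed in 5 and Kat7 in 6 of the 9 alternative settings. Kat2a had a log2 fold change of 0.14 (95% interval -0.023 to 0.30) and no overlap. Kat8 was at -0.15 (95% interval -0.31 to 0.021), also without overlap, and Kat6b, the least abundant gene, was at 0.060 (95% interval -0.21 to 0.33).

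A ratio of 2 genes within a library does not depend on how libraries are scaled, and the ratio was taken for the 3 pairs of paralogues. For Crebbp and Ep300, CBP over p300, the log2 ratio of read counts was 0.95, 0.81 and 0.99 in vehicle, 1.12, 0.97 and 0.85 with oxamate and 1.34, 1.21 and 1.35 in the combination. The combination lay above all other libraries, with a mean of 1.30 ± 0.081 beside 0.92 ± 0.098 and 0.98 ± 0.13 (SD, n = 3). An exact permutation test of the F statistic over the 3 groups gave p = 0.0179, or 0.0268 after adjustment over the 3 pairs, where the smallest possible p is 0.00357. On ranks in place of values the adjusted p was 0.075 by the exact permutation test, which ends the call.

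For Kat6a and Kat6b the larger step in the mean was from vehicle to oxamate (0.47), beside 0.12 on addition of octyl-L2HG. The single steps were not tested. The log2 ratio was 0.49, 0.77 and 0.74 in vehicle, 1.16, 1.03 and 1.23 with oxamate and 1.46, 1.08 and 1.23 in the combination. Oxamate and combination libraries overlapped with each other and lay above vehicle (exact permutation p = 0.0143, adjusted 0.0268, but 0.075 on ranks, which ends the call). For Kat2a and Kat2b the means were -1.57 ± 0.077 in vehicle, -1.39 ± 0.16 with oxamate and -1.24 ± 0.083 in the combination (SD, n = 3), and the test did not pass (exact permutation p = 0.0571, adjusted 0.0571). Crebbp/Ep300 lost its call without vehicle library 2 or combination library 7, 8 or 9, and Kat6a/Kat6b without combination library 7 or 9, with adjusted p values up to 0.0804 by the exact permutation test. Kat2a/Kat2b gained one without oxamate library 4 or 5 (adjusted p = 0.0268 and 0.0321, exact permutation test).

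**Figure D3:**
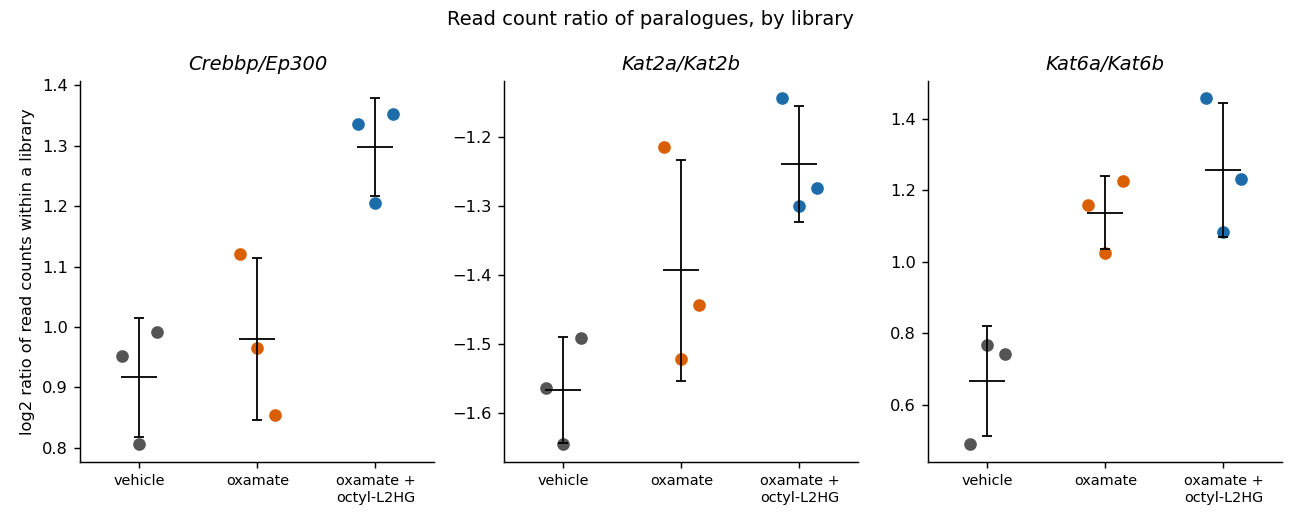
Log2 ratio of the read counts of 2 paralogues (y axis, own scale per pair, not starting at 0) in each library (points), with the mean (long bar) and SD (error bar) of the 3 groups. The combination is apart from both other groups for Crebbp/Ep300 (means 1.30, 0.98 and 0.92), and vehicle is apart from both other groups for Kat6a/Kat6b (means 0.67, 1.14 and 1.26).

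The 10 genes differ widely in exon length. Both genes called higher with oxamate, Crebbp and Brd1, have more than 5000 exon bases, as have Ep300 and Kat6a, which were not called, and Kat6b, whose log2 fold change was -0.089. Crebbp has 10820 exon bases, Ep300 9566, Kat6a 9127, Kat6b 7890 and Brd1 5219, and the other 5 have between 1579 and 4653. Over 10696 well expressed genes, the log2 fold change rose with exon length for oxamate against vehicle (Spearman's rho 0.34), for the addition of octyl-L2HG (0.15) and for the combination against vehicle (0.35), as a description across genes that share the same libraries. Of the 4183 genes with at least 5000 exon bases, 8.63% were called higher and 1.1% lower with oxamate, 5.9% higher and 8.7% lower on addition of octyl-L2HG, and 16.5% higher and 8.13% lower in the combination against vehicle. Of the 5 genes of that length among the 10, Crebbp and Brd1 were called higher with oxamate, Ep300 lower on addition of octyl-L2HG, and Kat6a and Brd1 higher in the combination.

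**Figure D4:**
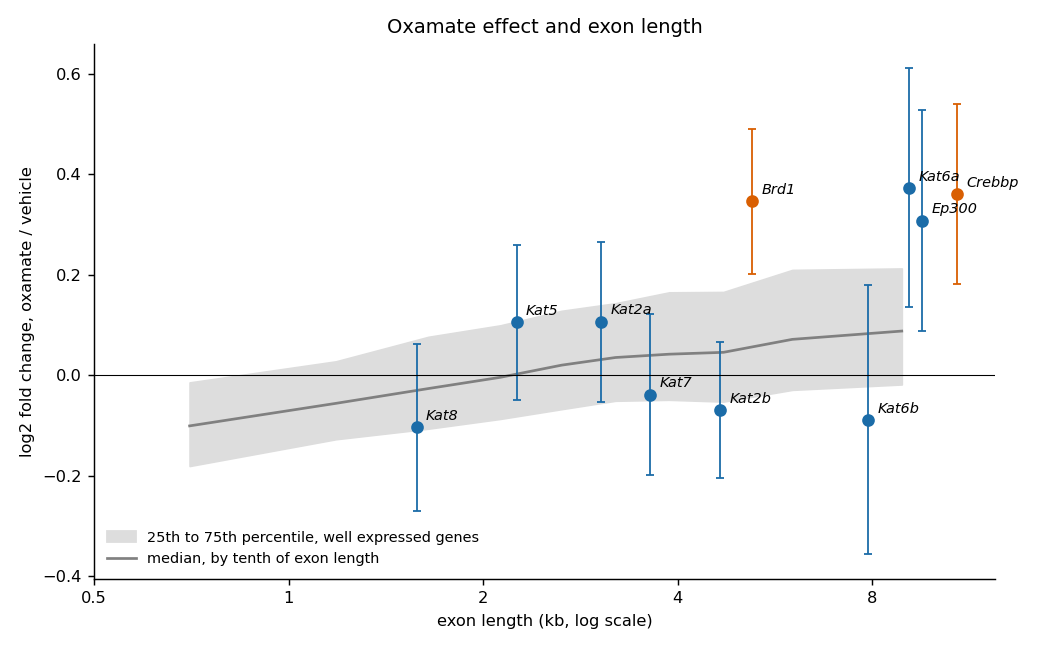
Log2 fold change for oxamate against vehicle (y axis) of the 10 genes by exon length in kb (x axis, log scale), with 95% intervals, called genes in orange. The grey line is the median of well expressed genes in 10 bins of equal size by exon length and the band runs from their 25th to their 75th percentile. The line goes from -0.10 in the bin of the shortest genes to 0.088 in that of the longest, and Brd1 and, past the end of the line, Crebbp, Kat6a and Ep300 lie higher than the upper edge of the band.

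The trend with length also differed among the libraries within vehicle and within oxamate, but hardly within the combination. Library numbers follow the groups, so an effect of library order and one of treatment cannot be told apart. The rank correlation between exon length and the deviation of a library from the mean of all libraries was -0.45, -0.31 and -0.11 for vehicle libraries 1 to 3, -0.034, 0.076 and 0.16 for oxamate libraries 4 to 6, and between 0.23 and 0.26 for the combination. In vehicle library 1 and oxamate library 4, Crebbp, Ep300 and Kat6a were below their group means (log2 deviations between -0.30 and -0.12), and the shorter Kat5, Kat7 and Kat8 were above theirs (between 0.05 and 0.20). Of the long genes, Brd1 (-0.015 and -0.040) and Kat6b (-0.013 and -0.14) were also below. The split by length was not complete, since the shorter Kat2b was below too (-0.027 and -0.062). Kat2a, also shorter, was below in library 1 (-0.024) and above in library 4 (0.12). With the trends of length and GC content removed library by library, the oxamate log2 fold changes became 0.27 for Crebbp (adjusted p = 0.0199, edgeR) and 0.26 for Brd1 (adjusted p = 0.00909, edgeR), both still called, 0.22 for Ep300 and 0.30 for Kat6a. The fall of Ep300 was -0.43 (adjusted p = 0.0132, edgeR), and the rise of Kat6a in the combination was 0.60 (adjusted p = 0.000122, edgeR).

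Spermatid markers moved with the groups too. The 13 markers summed to between 2924 and 3027 CPM in vehicle, 2767 and 2823 with oxamate and 2491 and 2535 in the combination, and 8 of them were called lower and 2 higher in the combination against vehicle, where 10.6% and 7.48% of all genes tested were. With oxamate, the comparison in which Brd1 and Crebbp were called, 4 were already lower (1.22% of all genes) and 0 higher (3.96%; 1 at an unadjusted p under 0.05 and 1 by DESeq2). These were Prm1, Prm2, Tnp1 and Tnp2, the protamine and transition protein genes, with log2 fold changes between -0.45 and -0.26. When octyl-L2HG was added, 6 were lower (8.06%) and 0 higher (3.18%; 2 at an unadjusted p under 0.05 and 1 by DESeq2). Spermatocyte markers summed to between 722 and 831, 656 and 752, and 778 and 835 CPM in the same order. Of these 10 genes, Sycp2 and Syce1 were called higher when octyl-L2HG was added, at 0.37 and 0.27 on the log2 scale, and Syce1 in the combination against vehicle, at 0.20. The part of these shifts in the values of the acetyltransferase genes was not tested.

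Beyond the 10 genes, 97 genes of related function were followed as 7 lists, of which 95 were tested. They hold other acetyltransferases, subunits of the complexes of the KAT2 and MYST enzymes, transcription factors and coactivators that work with CBP and p300, and enzymes of acetyl-CoA supply. With oxamate 10 were higher and 0 lower (edgeR; 28 and 2 at an unadjusted p under 0.05, 11 and 0 by DESeq2). Over all genes tested 3.96% were called higher and 1.22% lower with oxamate, and 8.63% and 1.1% of the genes with at least 5000 exon bases. On addition of octyl-L2HG 3 were higher and 6 lower, near the 3.18% and 8.06% of all genes tested. In the combination against vehicle 25 were higher and 4 lower, where 7.48% of all genes and 16.5% of the long ones were called higher, and 10.6% and 8.13% lower. The medians of the log2 fold changes were 0.090, 0.011 and 0.12.

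**Figure D5:**
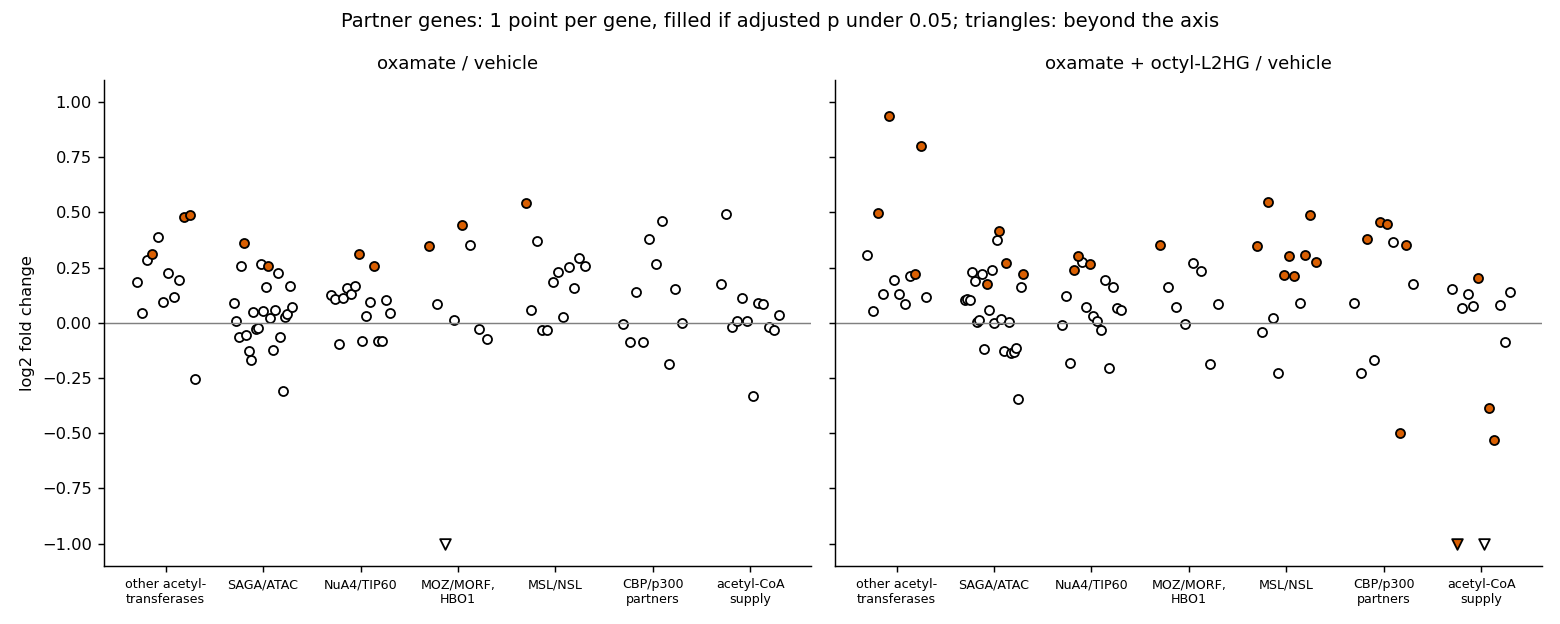
Log2 fold change (y axis) of the partner genes for oxamate against vehicle (left) and for the combination against vehicle (right), 1 point per gene and 1 column per list, orange where the adjusted p was under 0.05 and triangles where the value lies beyond the axis. Orange points are above 0 in all lists on the left that have any, and on the right those below 0 are in the lists of CBP/p300 partners and of acetyl-CoA supply.

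Among the 12 other acetyltransferases, 3 rose with oxamate (3.96% of all genes did) and 4 were higher in the combination (7.48%), and 0 were lower against vehicle in either (1.22% and 10.6% of all genes were, and of the list 0 also at an unadjusted p under 0.05 and by DESeq2). When octyl-L2HG was added, 2 were higher and 1 lower, where 3.18% and 8.06% of all genes tested were. Ncoa3, a steroid receptor coactivator that binds CBP and p300, rose at both steps, from 765 ± 61.7 to 1068 ± 79.1 and then to 1350 ± 26.1 normalized counts (SD, n = 3). Its log2 fold change was 0.49 for oxamate (adjusted p = 0.000661, edgeR), 0.31 for octyl-L2HG (adjusted p = 0.0126, edgeR) and 0.80 for the combination (adjusted p = 5.83e-07, edgeR). Its paralogue Ncoa2 rose by 0.48 (adjusted p = 0.000543, edgeR) and then fell by 0.26 (adjusted p = 0.0325, edgeR) on the log2 scale. Kat14, the second acetyltransferase of the ATAC complex, rose on addition of octyl-L2HG by 0.55 (adjusted p = 0.00564, edgeR) and in the combination by 0.94 (adjusted p = 1.93e-05, edgeR), from 78.0 ± 6.93 normalized counts in vehicle.

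The SAGA and ATAC list held 25 genes, which are for subunits that surround Kat2a and Kat2b, except Atxn7l3b. Of this list 2 rose with oxamate and 4 were higher in the combination, where 3.96% and 7.48% of all genes tested were (8.63% and 16.5% of long genes). In the list 0 were lower against vehicle in either comparison (1.22% and 10.6% of all genes were, and of the list 0 also at an unadjusted p under 0.05 and by DESeq2). Tada2b, an adaptor of the SAGA enzyme module, rose by 0.26 with oxamate (adjusted p = 0.019, edgeR) and by 0.41 in the combination (adjusted p = 8.28e-05, edgeR). Atxn7l3b, a paralogue of the SAGA subunit Atxn7l3, rose with oxamate by 0.36 (adjusted p = 0.00268, edgeR), and Taf12, shared with TFIID, was higher by 0.27 in the combination (adjusted p = 0.00856, edgeR). On addition of octyl-L2HG 1 subunit was higher and 1 lower (3.18% and 8.06% of all genes tested were, and of the list 5 and 3 at an unadjusted p under 0.05).

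Among subunits of the MYST complexes, genes in each of 3 lists were called higher with oxamate, where 3.96% of all genes tested and 8.63% of long genes were called higher and 1.22% of all genes lower. Of 16 NuA4/TIP60 subunits, 2 were higher with oxamate and 3 in the combination, among them Mbtd1, a reader of methylated histones (0.31, adjusted p = 0.015, and 0.26, adjusted p = 0.0159, edgeR), and in the combination alone the scaffold Epc1 (0.30, adjusted p = 0.003, edgeR) and the ATPase Ep400 (0.24, adjusted p = 0.0121, edgeR). Of 8 further MOZ, MORF and HBO1 subunits, 2 rose with oxamate, the scaffold Brpf1 by 0.35 (adjusted p = 0.0118, edgeR) and Jade1 by 0.44 (adjusted p = 0.0371, edgeR). DESeq2 called Brpf1 but not Jade1 (adjusted p = 0.053, DESeq2). Brpf1, a paralogue of Brd1, had a log2 fold change of 0.0057 on addition of octyl-L2HG (adjusted p = 0.983, edgeR) and 0.35 in the combination (adjusted p = 0.00347, edgeR). Of 12 MSL and NSL subunits, partners of Kat8, 1 rose with oxamate and 8 were higher in the combination, where 7.48% of all genes tested and 16.5% of long genes were. No subunit of these 3 lists was called lower against vehicle by edgeR with all libraries or by DESeq2, while 10.6% of all genes tested were called lower in the combination. At an unadjusted p under 0.05, 1 gene of the MOZ, MORF and HBO1 list was lower with oxamate, and 1 NuA4/TIP60 subunit and 1 MSL or NSL subunit were lower in the combination. Named after their values were seen, these were Ing4, scarce at 3.97 ± 0.418 normalized counts in vehicle and 0.638 ± 0.553 with oxamate (SD, n = 3), with a log2 fold change of -2.37 (adjusted p = 0.108, edgeR, and none given by DESeq2), Ruvbl2 at -0.21 (adjusted p = 0.122, edgeR) and Mcrs1 at -0.23 (adjusted p = 0.0952, edgeR). Hcfc1, a host cell factor that the NSL complex shares with others, rose by 0.54 with oxamate (adjusted p = 0.000636, edgeR), and Phf20l1 and Kansl2 were higher by 0.49 and 0.55 in the combination (adjusted p = 0.00102 and 0.00505, edgeR). For the addition of octyl-L2HG edgeR called 0 of these subunits. At an unadjusted p under 0.05, 2 NuA4/TIP60 subunits were higher and 1 lower, 2 of the MOZ, MORF and HBO1 list were higher and 0 lower, and 1 of the MSL and NSL list was higher and 2 lower, and DESeq2 called 1 MSL or NSL subunit higher.

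Of 12 transcription factors and coactivators that work with CBP and p300, 10 were tested. With oxamate 0 were called in either direction (3 higher and 1 lower at an unadjusted p under 0.05, 0 by DESeq2). In the combination 4 were higher and 1 was lower against vehicle, where 7.48% and 10.6% of all genes tested were. With octyl-L2HG added to oxamate, 0 were higher and 1 was lower by edgeR (3 and 1 at an unadjusted p under 0.05, 1 and 1 by DESeq2), beside 3.18% and 8.06% of all genes tested. Med15, a Mediator subunit with a KIX domain related to that of CBP and p300, was higher by 0.35 (adjusted p = 0.00106, edgeR), and the CREB coactivator Crtc1 by 0.46 (adjusted p = 0.0072, edgeR). Fhl5, the testis coactivator of CREM known as ACT, went down, from 5657 ± 164 in vehicle to 4963 ± 252 with oxamate and 4061 ± 241 in the combination (SD, n = 3). Its log2 fold change was -0.31 on addition of octyl-L2HG (adjusted p = 0.00414, edgeR) and -0.50 against vehicle (adjusted p = 2e-05, edgeR).

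The 12 genes of acetyl-CoA supply were not called with oxamate, in either direction, at an unadjusted p under 0.05 or by DESeq2. On addition of octyl-L2HG 3 fell and 0 rose (1 rose at an unadjusted p under 0.05, and 1 by DESeq2), where 8.06% of all genes tested were called lower and 3.18% higher. Pdha2, the testis form of the pyruvate dehydrogenase E1 alpha subunit, went from 6656 ± 142 with oxamate to 4868 ± 58.9 (SD, n = 3), a log2 fold change of -0.48 (adjusted p = 2.88e-05, edgeR). Pdhb, the beta subunit of the same enzyme, went from 3838 ± 61.6 to 2549 ± 29.6 (SD, n = 3), a log2 fold change of -0.62 (adjusted p = 2.22e-06, edgeR). Acss1, a mitochondrial acetyl-CoA synthetase, was scarce and went from 27.2 ± 6.32 to 8.32 ± 2.38 (SD, n = 3), a log2 fold change of -1.74 (adjusted p = 0.000958, edgeR). In the combination against vehicle 3 genes were lower and 1 higher, also by DESeq2, beside 10.6% and 7.48% of all genes tested. The higher gene, named after its values were seen, was Dld, the E3 subunit of pyruvate dehydrogenase, at 0.20 (adjusted p = 0.0441, edgeR). The genes below vehicle were those 3, Pdhb by -0.53, Pdha2 by -0.39 and Acss1 by -1.25 on the log2 scale, and with oxamate alone their log2 fold changes against vehicle were 0.084, 0.092 and 0.49, none of them called.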

How the data were processed

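RNA of RS was sequenced from polyA libraries made with a stranded kit, 3 per group. Per the submitters' processing notes and the methods, the authors trimmed reads with cutadapt 2.10, aligned them with TopHat2 2.1.1 to GRCm39 with Ensembl annotation and counted reads per gene with HTSeq 2.01. They deposited raw counts and a normalized signal, the count divided by the DESeq2 (1.36.0) size factor of the library. Of 55414 genes, 6250 had no counts. No column of values went unused. The notes also list a build of another organism, and labels and methods name different sequencers.

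Groups and numbers came from the sample labels. Tests used edgeR 4.0.16, run in R 4.3.3, on the 25128 genes with a count sum of at least 10 (TMM, all 9 libraries in 1 robust quasi-likelihood fit with group as the only term, Benjamini-Hochberg adjustment, threshold 0.05). The fit was also run on simulated counts. These lacked the residual component and the length trend of the real libraries, so that run cannot show how both bear on the calls. Normalized counts are those deposited. Intervals are 95% intervals of the fit. Total counts of 32339533 to 39888396 per library limit the precision of scarce genes such as Kat6b. Replicate pairs differed by more than sampling noise, as their chi-square divided by its degrees of freedom lay between 2.10 and 23.3. Exon length and GC content came from GENCODE M21 of GRCm38, matched by gene identifier for 99.6% of genes tested, so lengths may differ from the annotation used in counting. Paralogue ratios were tested with an exact permutation test over the libraries (scipy 1.17.1).

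The 10 members, the partner and marker lists, and the tests were chosen with earlier results of these data known. Named were all 10 members and, of each partner list, up to 3 genes with the smallest p for any difference among the groups, if the adjusted p was under 0.05. Spermatogonial markers summed to between 13.2 and 15.0 CPM. Alternatives were DESeq2 1.42.0, scaling by DESeq2 size factors or by total counts, 3 different filters on low values, only the 2 groups compared, a threshold of 0.01, removal of length and GC trends (mgcv 1.9.3) and each library left out. The cutoff of 5000 exon bases, the fit without libraries 1 and 4, and the residual component as a covariate were chosen after seeing the data.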

Additional observations from a re-analysis of the deposited data

How the results depend on the processing

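The numbers of the 10 genes called rest on few libraries. With each library left out in turn, between 1 and 4 were higher and 0 to 1 lower with oxamate, 0 to 2 higher and 0 to 1 lower on addition of octyl-L2HG, 3 to 5 higher and 0 to 1 lower in the combination against vehicle, and 4 to 8 differed in any way. For the partner genes these ranges were 6 to 13 and 0 to 2, 1 to 13 and 4 to 7, 12 to 34 and 3 to 8, and 18 to 45. Over all genes tested they were 538 to 1583 and 121 to 705, 242 to 1575 and 1119 to 2840, 1170 to 2811 and 1800 to 3383, and 3153 to 7327. The adjusted permutation p ranged from 0.0268 to 0.0804 for Crebbp/Ep300, from 0.0268 to 0.132 for Kat2a/Kat2b and from 0.0214 to 0.0804 for Kat6a/Kat6b, and on ranks it was 0.075 for the first and the last of these pairs. The cause of these shifts was not tested.

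With oxamate, 4 of the 10 genes were higher when all genes with at least 1 count were tested and with the residual component as a covariate, and 1 when only the 2 groups compared were fitted or at a threshold of 0.01. On addition of octyl-L2HG, 2 were higher with DESeq2, with its size factors, with each of the 3 other filters, with only the 2 groups and without libraries 1 and 4, 3 with the trends of length and GC content removed and with the residual component, and 0 with total counts or at 0.01, while 3 were lower without libraries 1 and 4 and 2 with the residual component. In the combination against vehicle, 5 were higher with DESeq2, with its size factors, with all genes of at least 1 count, with filterByExpr, with only the 2 groups and without libraries 1 and 4, and 6 with the residual component, while 0 were lower with DESeq2, its size factors, all genes or at 0.01 and 2 without libraries 1 and 4 or with the residual component. At 0.01, 3 genes differed in any way. The residual component was estimated from the same libraries that it then adjusts.

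Among the partner genes, 17 were higher with oxamate without libraries 1 and 4, and 29 were higher and 2 lower with the residual component. On addition of octyl-L2HG the number higher was 8 with DESeq2, 6 with its size factors, 13 with the trends removed, 17 without libraries 1 and 4 and 18 with the residual component, and the number lower was 14 with the residual component. In the combination, total counts gave 16 higher and 8 lower, and the number lower was 7 with the trends removed, 7 without libraries 1 and 4 and 11 with the residual component, with which 55 differed in any way.

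Signs turned for values near 0 that were not called in either fit. Kat7 with oxamate was at 0.0055 without oxamate library 5 and 0.018 without oxamate library 6, the upper end of a range that began at -0.14. On addition of octyl-L2HG, Kat2a was at -0.014 with total counts and -0.017 without oxamate library 5 (up to 0.097 with other libraries left out), Kat8 at 0.0025 with all genes of at least 1 count, 0.022 with the trends removed, 0.068 without oxamate library 4 (down to -0.12 with others left out) and 0.069 without libraries 1 and 4, and Brd1 at 0.0093 with all genes of at least 1 count. Kat6b in the combination was at -0.0029 with total counts and -0.023 without combination library 8 (up to 0.12 with others left out). No paired analysis was possible because the groups share no replicate numbers in the labels. At 91 to 119 read counts per library, Kat6b had the widest interval among the 10 genes.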
